A study of Mus musculus with 2 samples.

Results

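Distal accessible sites in exons are stretches of open chromatin centred in exons of protein-coding genes, away from the starts that the annotation used here lists. They were selected on the deposited peak lists of DNase-seq from mouse adrenal gland. A shared peak was a merged region holding a peak of each replicate with at least 1 bp of overlap. A shared peak counted as a distal exonic site when its nearest edge was over 1 kb away from each start annotated for any gene and its midpoint lay in an exon of a protein-coding gene of GENCODE M21 on mm10. Of 48299 shared peaks, 26622 were distal and 1585 were distal exonic sites (3.28% of shared peaks and 5.95% of distal ones). Another 8600 shared peaks had their midpoint in such an exon but lay within 1 kb of a start, so 15.6% of exonic shared peaks were distal. By the midpoint, 739 sites (46.6%) lay in coding sequence, 611 (38.5%) in a 3′ untranslated region, 32 (2.02%) in a 5′ untranslated region and 203 (12.8%) in an exon of a transcript without coding sequence. The peak lists chose the members, so their number and their presence in both replicates are descriptions.

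The study profiled the adrenal gland of 10-day-old females of strain B6CASTF1/J, that is, F1 animals with C57BL/6J and CAST/EiJ as parental strains. It has 1 group with 2 biological replicates, no treatment, and 3 females named in each sample label, with 1 donor label shared by both. Both replicates carry the same 2 parental genomes, and their reads were placed on the C57BL/6J reference, mm10. No condition can be compared, so no test between groups was made, and values are given for both replicates side by side.

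DNase I cuts DNA where nucleosomes are displaced, so an accessible site marks DNA that proteins can reach, and a footprint is a short protected stretch inside it. Most regulatory DNA outside promoters lies in introns or between genes. Exons can also hold it, and a base of a coding exon can then serve both the genetic code and a DNA-binding protein. CTCF is a zinc finger protein that holds chromatin loops and boundaries, and NRF1 is an activator of housekeeping and mitochondrial genes that binds unmethylated CpG-containing DNA. In a gland made of cortex, medulla and capsule, fewer cells of a type and less accessibility per cell cannot be told apart.

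The following 10 stretches of coding sequence each hold a motif match within 75 bp of a distal site's midpoint. They were chosen because the match is centred in a footprint of both replicates. Among all matches in coding sites, 39 of 40 for CTCF, 11 of 21 for NRF1, 5 of 10 for the GC box and 1 of 29 for AP-1 were so centred. The stretches are from the highest such coding sites for these 4 motifs. Each is printed 5′ to 3′ on the strand that carries the consensus, from the mm10 reference, with the consensus match in capitals.
Rasip1 CTCF, chr7:45628949-45628978: gtcctgcaCCAGCAGAGGGCGCtccgcgtc
Pgls CTCF, chr8:71596107-71596136: tccaggaaCCAGCAGAGGGCGCccgtgcgc
Hey1 CTCF, chr3:8664684-8664713: ccaagccgCCACTAGGGGGCGCtcgcaagg
Crh CTCF, chr3:19694054-19694083: ctcggtggCCACCAGGGGGCGCtggagagg
Kif19a CTCF, chr11:114789218-114789247: ggcaggtgCCAGCAGGTGGCGCccttccgt
Sptbn4 NRF1, chr7:27361589-27361618: gcttcctgctGCGCAAGCGCgagctcgacg
Scnn1a NRF1, chr6:125331057-125331086: gaggtggtgtGCGCAGGCGCtgcagggggt
Zfp697 GC box, chr3:98427706-98427735: cggcggcttcGGGGCGGGGcccacgctggc
Dlgap3 GC box, chr4:127236184-127236213: agccctcgcgGGGGCGGGGcgtgccggtga
Fry AP-1, chr5:150466376-150466405: gaggattccgaTGAGTCAtccgaggaggac
In these lines the CTCF matches of Rasip1, Pgls and Kif19a are on the strand opposite to the gene's, and that of Hey1 is too, while that of Crh is on the gene's own strand.

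The genes behind these stretches have varied roles, and all 10 sites had a higher peak in replicate 1. Peak heights are the deposited signal, 1 value per peak, and are comparable within a replicate. Rasip1, a Ras-binding protein of blood vessel formation, had heights of 6.83 and 3.72 in replicates 1 and 2, in exon 3 of 12. Pgls, an enzyme of the pentose phosphate pathway, had 6.59 and 3.69 in its last exon. Hey1, a transcriptional repressor downstream of Notch, had 5.11 and 3.20. Crh, which encodes the hypothalamic hormone that drives corticotropin release, had 3.98 and 3.43 in exon 2 of 2. RefSeq, another annotation, has starts 156 bp from the Pgls site (Niban3) and 113 bp from the Crh site (Gm42189). The kinesin gene Kif19a had 3.54 and 2.73. Scnn1a, the alpha subunit of the epithelial sodium channel, had 7.24 and 3.61. Zfp697 had 4.79 and 2.79, Dlgap3, a scaffold protein of synapses, had 2.45 and 1.61, and Fry had 3.92 and 1.48. The Fry stretch was the only one with an AP-1 match in a shared footprint among coding sites.

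Across the series, replicate 1 had 98813 peaks in its list and replicate 2 had 55135, and over all shared peaks the median ratio of replicate 1 to replicate 2 was 1.66. Markers of the labelled tissue were checked by a peak at the promoter. All 10 cortex, medulla and capsule markers had one in replicate 1 and 8 had one in both, with Mc2r (0.802) and Th (0.809) called in replicate 1 only. The labels name separate biological replicates of 1 donor label, so the spread between them is that of 2 samples.

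Per base of annotation, distal sites were denser in exons than in introns or between genes. Exons more than 1 kb from every start covered 68.4 Mb and held 23.2 shared sites per Mb, against 12.1 per Mb over 1017 Mb of intron and 8.47 per Mb over 1464 Mb between genes. These lengths count every base of the reference chromosomes, including assembly gaps and chromosome Y, which females do not carry. The density between genes is therefore understated, by an amount not computed. Coding sequence held 29.5 sites per Mb, 3′ untranslated regions 19.8, 5′ untranslated regions 47.5 and exons of transcripts without coding sequence 17.3. The 5′ untranslated figure rests on 32 sites in 0.674 Mb. The order of coding sequence above 3′ untranslated regions, introns and DNA between genes was the same in each replicate's own list: 66.5, 45.5, 32.5 and 19.9 peaks per Mb in replicate 1, and 39.0, 23.6, 13.4 and 9.32 in replicate 2.

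**Figure D1:**
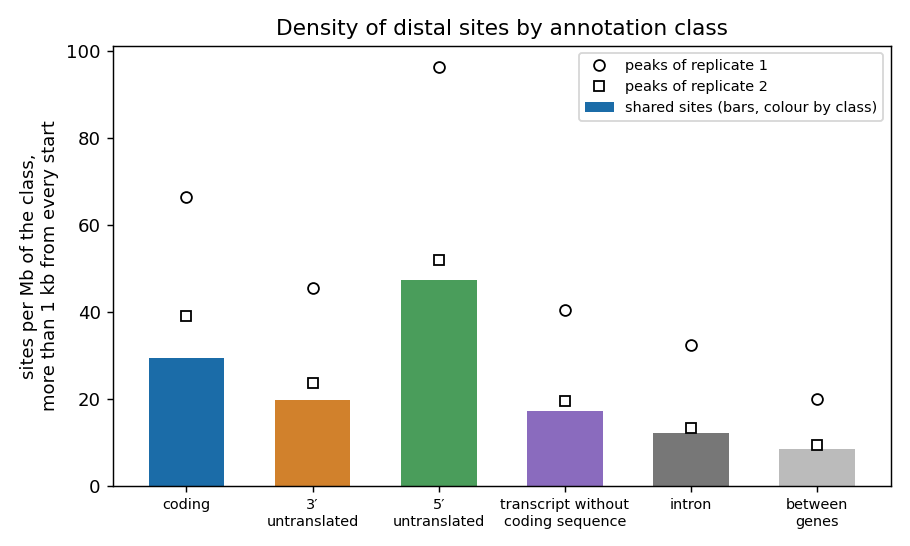
Sites per Mb of each annotation class more than 1 kb from every start, with bars for shared sites and open symbols for the peaks of each replicate alone. Coding sequence stands at 29.5 shared sites per Mb against 12.1 in introns, and the symbols of both replicates keep that order.

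The sites were close in height to other distal sites and lower than shared peaks as a whole. Their median height was 1.58 in replicate 1 (quartiles 1.05 and 2.49) and 0.992 in replicate 2 (quartiles 0.700 and 1.51). Introns had medians of 1.48 and 0.855, DNA between genes 1.49 and 0.868, and all shared peaks 1.86 and 1.14. By class the medians were 1.48 and 0.954 in coding sequence, 1.68 and 1.06 in 3′ untranslated regions, 1.88 and 1.00 in 5′ untranslated regions, and 1.64 and 0.979 in exons of transcripts without coding sequence. The interquartile ranges of these classes overlapped in both replicates. The median width was 213 bp, and the median distance to the nearest start was 4306 bp against 9481 bp for intronic sites.

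The highest coding sites were in genes of several tissues, and 9 of the 10 highest were CpG-rich, that is, had at least 50% GC and a ratio of observed to expected CpG of at least 0.6. All 10 had a footprint of both replicates and none was higher in replicate 2. The footprint and replicate counts were near the background at such heights. With the members divided into 4 equal groups by height, 98.8% of the 169 coding sites in the highest group had such a footprint. Of these 169 sites, 1.78% were higher in replicate 2, and 57.4% were CpG-rich, against 37.3% of all coding sites. Angptl6, a secreted angiopoietin-like factor, led with 16.5 and 6.56 in exon 2 of 6 (chr9:20878101-20878520). Its site lay 1207 bp from the nearest GENCODE start but 39 bp from a RefSeq start of the same gene. Sptbn4, the beta spectrin of axon initial segments, followed with 12.8 and 5.05 in exon 33 of 36 (chr7:27361461-27361700), 5446 bp from any RefSeq start. These 2 sites were the highest coding ones in replicate 1.

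Blood cell regulators were among the 10 highest coding sites. Spi1, which encodes the myeloid and B cell factor PU.1, had 9.06 and 5.69 in exon 5 of 5 (chr2:91115161-91115360), nearest to the start of the neighbouring Mybpc3 at 2784 bp. Klf1, the erythroid transcription factor, had 6.91 and 4.28 in exon 2 of 3, 1153 bp from its own start. Whether blood cells in the tissue contribute to these heights was not tested.

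The other sites of the 10 were Synpo, an actin-associated protein of kidney podocytes and dendritic spines (8.92 and 5.14), Fbxl22, an F-box protein of muscle (8.94 and 4.01), and Ccdc194 (7.22 and 4.83). Cyp4f39, a fatty acid hydroxylase, had 8.52 and 3.79 in exon 8 of 14. Nrg2, a neuregulin that binds ErbB receptors, had 7.88 and 4.0 in its last exon, 13401 bp from the nearest start. The unconventional myosin gene Myo15b had 7.18 and 4.15 in its first exon.

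The 3 highest sites of all lay in 3′ untranslated regions, and 2 of those 3 went against the general order of the replicates. Lars2, the mitochondrial leucyl-tRNA synthetase, had 54.6 and 45.7 in exon 21 of 21 (chr9:123461901-123462100). Of the 31-base words of that site, 62.9% were found elsewhere in the genome, so reads there may not be placed uniquely. Cers5, a ceramide synthase, had 22.2 and 34 in its last exon (chr15:99735641-99735920), 10023 bp from the nearest start, which is that of Cox14. Ubqln1, a ubiquilin that carries proteins to the proteasome, had 11.3 and 16.9 in its last exon (chr13:58177601-58177820). Neither the Cers5 nor the Ubqln1 site held a base footprinted in both replicates, while all 10 of the highest coding sites did. None of their 31-base words recurred in the genome.

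The next 3′ untranslated sites were less than 11 high in both replicates and higher in replicate 1. Unc13a, a priming factor of synaptic vesicles, had 10.2 and 4.90, and a RefSeq start of Gm39195 fell inside its site. The agouti gene, written a in the annotation, encodes a signalling protein of the melanocortin system and had 8.67 and 4.47. Dand5, a secreted antagonist of nodal and BMP signals, had 6.99 and 5.28, Rtn2, a reticulon of the endoplasmic reticulum, had 7.19 and 4.87, and Skap2, an adaptor of Src kinases, had 8.44 and 3.63. The Dand5 and Skap2 sites each held a CTCF match.

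**Figure D2:**
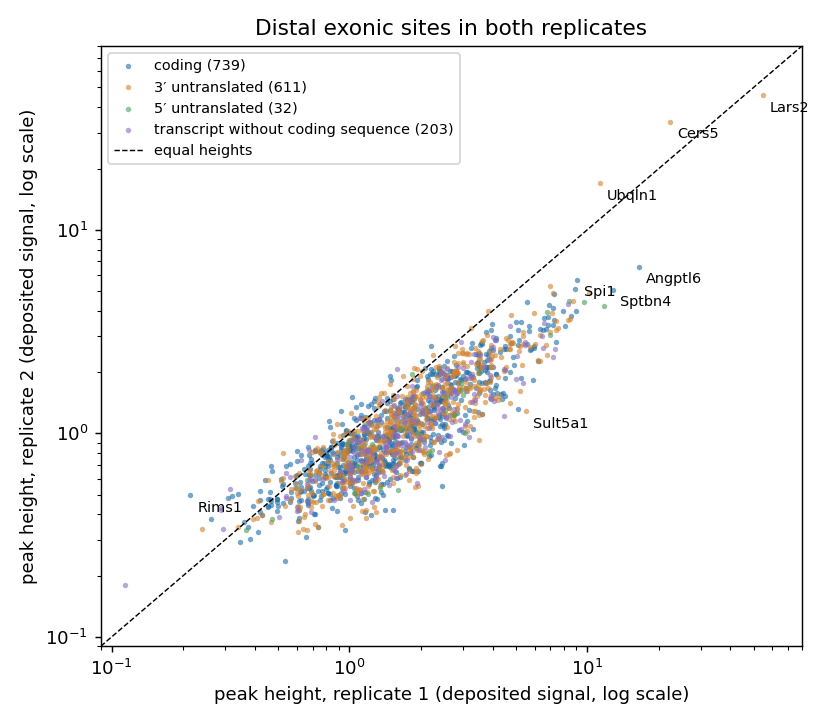
Peak height in replicate 2 against replicate 1 for the 1585 distal exonic sites, both axes logarithmic in the deposited signal, coloured by class, with the dashed line where heights are equal. Most points lie below the line, while Cers5 and Ubqln1 stand above it. No coding site exceeds 6.56 in replicate 2, so none lies at their heights on either side of the line.

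Of the 6 highest 5′ untranslated sites, 5 lay within 1 kb of a transcript start that RefSeq has and GENCODE M21 does not. They were Zfp503, a zinc finger co-repressor (11.8 and 4.22, 602 bp), Rap2b, a small GTPase (9.69 and 4.44, 0 bp), A930004D18Rik (8.4 and 4.44, 212 bp from Gm17762), Sf3b5, a splicing factor subunit (6.99 and 3.06, 0 bp), and Ndn, the imprinted gene of necdin (3.52 and 2.00, 0 bp). The sixth was Nup160, a scaffold protein of the nuclear pore, with 6.75 and 3.95 at 1587 bp. Over all members, 80 (5.05%) lay within 1 kb of a RefSeq start, near the 5.26% of all distal sites, and 24 (1.51%) did so for curated RefSeq transcripts alone, against 0.669% of all distal sites. Of the 80, 44 were in coding sequence, 12 of the 32 in 5′ untranslated regions, 12 in 3′ untranslated regions and 12 in other exons. Without these 80 sites 1505 remained, with medians of 1.58 and 0.985.

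In exons of transcripts without coding sequence, Gas2l1, which links actin to microtubules, had 8.30 and 4.31, and Kctd17 had 6.59 and 3.48. Mpp6, a membrane scaffold protein, had 6.48 and 3.01, and Maco1, a neuronal membrane protein, had 7.33 and 2.60. All 4 were higher in replicate 1 and had a footprint of both replicates. In the highest height group of all members, 98.5% had such a footprint and 2.78% were higher in replicate 2.

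The sites were richer in GC than intronic distal sites and than exon sequence outside peaks. Within 75 bp of the midpoint the median GC content was 60.7% in coding sites and 56.0% in 3′ untranslated sites, against 53.3% in intronic ones. Exon windows of 150 bp outside the peaks of both replicates had medians of 49.3% in coding sequence and 42.7% in 3′ untranslated regions. CpG-rich sites made up 37.3% of coding sites (276 of 739), 11.6% of 3′ untranslated sites (71 of 611) and 5.78% of intronic sites, against 7.43% and 0.896% of the coding and 3′ untranslated windows. The 1585 members were divided into 4 groups of equal size by the geometric mean of their heights. Among coding sites the CpG-rich share was 33.0% in the lowest of these height groups and 57.4% in the highest. The CpG-rich coding sites were wider, with a median of 286.5 bp against 207 bp for the other coding sites, and had a lower share with a shared footprint, 79.7% against 84.9%.

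**Figure D3:**
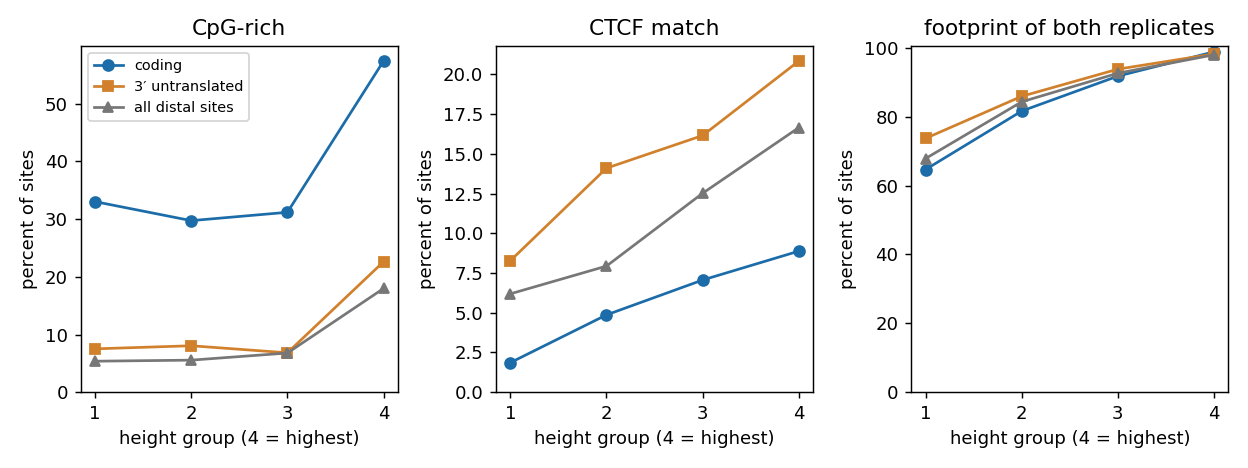
Percent of sites that are CpG-rich, that hold a CTCF match and that hold a footprint of both replicates, by height group from lowest (1) to highest (4). Coding sites lead in CpG-rich sites and 3′ untranslated sites lead in CTCF matches in all 4 groups. Height groups of the exonic sites are those over all 1585 members, and the grey line uses 4 equal groups of all distal sites.

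CTCF matches were about as common in distal exonic sites as in other distal sites, and unevenly spread over exon classes. A match to the CTCF consensus on either strand within 75 bp of the midpoint was found in 160 of 1585 sites (10.1%), where 10.8% of all distal shared sites had one. Coding sites had 40 (5.41%), 3′ untranslated sites 93 (15.2%) and intronic sites 10.2%. From the lowest to the highest height group the share went from 1.86% to 8.88% in coding sites and from 8.27% to 20.8% in 3′ untranslated sites. Besides the coding sites printed above, the highest sites with a match were the 3′ untranslated ones of Dand5 and Skap2.

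The CTCF matches sat near the middle of their sites and in footprints. The median distance from the match's centre to the midpoint was 9 bp in coding and 7 bp in 3′ untranslated sites, and 39 of the 40 coding matches lay within 25 bp. Centred in a shared footprint were 156 of the 160 matches in exonic sites (97.5%), against 95.4% over all distal sites. Of the 40 coding matches, 15 were on the gene's own strand and 25 on the other, and of the 93 in 3′ untranslated regions 42 and 51. Sites with a match were nearer to equal heights in the replicates: the median height was 1.87 in replicate 1 and 1.42 in replicate 2, against 1.55 and 0.961 for the other exonic sites. Intronic sites showed the same order, with 1.73 and 1.22 against 1.46 and 0.831.

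Counting from the genome rather than from the peaks, the CTCF consensus was accessible in coding sequence about as often as between genes. Every shared peak counted here, including those within 1 kb of a start that reach past it. More than 1 kb from every start there were 86 CTCF matches in coding sequence, of which 41 (47.7%) had their centre in a shared peak. In 3′ untranslated regions 100 of 156 matches (64.1%) did, in introns 1333 of 2535 (52.6%) and between genes 1505 of 3188 (47.2%). Per Mb there were 3.43 matches in distal coding sequence, 5.06 in 3′ untranslated regions, 2.49 in introns and 2.18 between genes. Matches on chromosome Y, which females do not carry, were counted too.

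NRF1 differed, with its matches in coding sequence the most often accessible. Its consensus matched 198 times in distal coding sequence, and 38 of these matches (19.2%) lay in a shared peak. The same share was 5.05% in 3′ untranslated regions (5 of 99), 2.35% in introns (57 of 2424) and 4.18% between genes (98 of 2345). Counted by site, 19 coding sites (2.57%) held a match within 75 bp of the midpoint against 0.284% of intronic sites, and 11 of the 19 were in the highest height group. The 19 coding sites had median heights of 3.92 and 1.96 and a median GC content of 69.3%, and none was higher in replicate 2. Base composition was not held equal in this comparison. The shared peaks counted for NRF1 also included those within 1 kb of a start that reach past it. Distal coding sites held 21 NRF1 matches within 75 bp of their midpoints. Of these, 11 (52.4%) were centred in a shared footprint. That was less than the 76.3% in intronic sites, the 73.4% between genes and the 71.1% over all distal sites. How many of the 38 matches lay in distal sites was not counted.

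**Figure D4:**
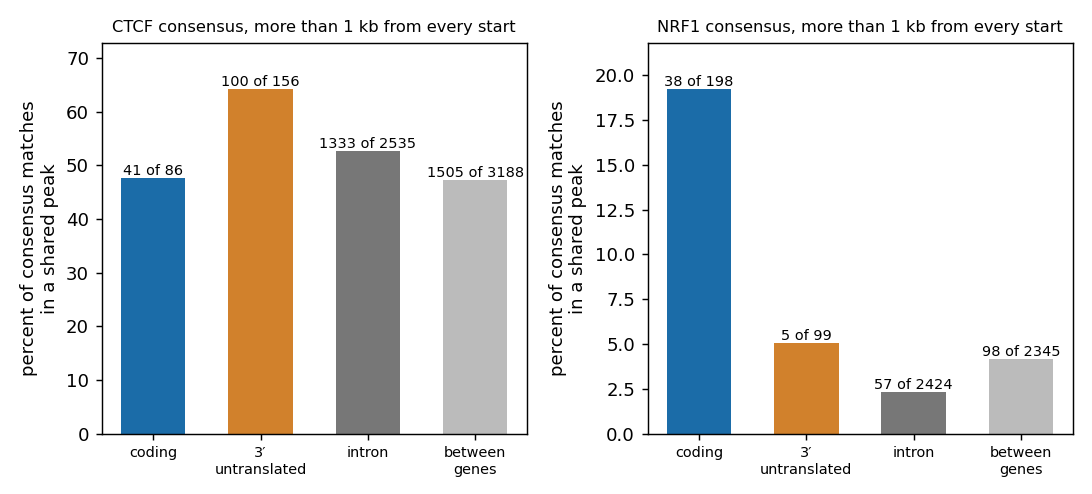
Percent of all CTCF and NRF1 consensus matches more than 1 kb from every start whose centre lies in a shared peak, by annotation class, with the number of matches on each bar. Shared peaks within 1 kb of a start that reach past it counted too. CTCF matches in coding sequence stand at 47.7%, near those between genes at 47.2%, while NRF1 matches stand at 19.2% in coding sequence and at most 5.05% in the other classes.

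The remaining consensuses give a mixed picture of the same exonic sites. AP-1 (TGANTCA), the motif of Fos and Jun dimers, matched in 72 sites (4.54%) against 8.06% of all distal sites and 3.90% of exon windows outside peaks. NR5A (TCAAGGNCA), the motif of the adrenal regulator steroidogenic factor 1, matched in 30 sites (1.89%) against 2.06% of all distal sites and 1.21% of exon windows outside peaks. Centred in a shared footprint were 2 of its 30 matches, against 15.1% over all distal sites. Genome-wide, 1.33% of NR5A matches in coding sequence lay in a shared peak, against 0.466% in introns. Coding sequence also held more distal sites per Mb whatever their motif, 29.5 against 12.1 in introns. The share of all bases in a shared peak was not computed. The E-box CAGCTG matched in 291 sites (18.4%), with 22.9% of coding and 15.4% of intronic sites. The REST consensus, bound by a silencer of neuronal genes, was rare, with a match in 5 sites, and all 5 matches were centred in a shared footprint.

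Footprints of both replicates were found in 1355 sites (85.5%), where 85.7% of all distal shared sites had one. The share was 83.0% in coding, 88.7% in 3′ untranslated, 75% in 5′ untranslated sites (24 of 32) and 86.7% in exons of transcripts without coding sequence. It followed height, with 67.8% in the lowest height group and 98.5% in the highest. Of the bases within 75 bp of the midpoint, 10.8% lay in a shared footprint in coding sites, 15% in 3′ untranslated sites and 13.2% in intronic sites.

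Coding sites were placed unevenly among exons. They were more often in the last exon than the coding windows of 150 bp available to them, 37.5% (277 sites) against 20.2%, and less often in an internal exon, 56.7% (419) against 77.9%. First exons held 22 sites, 15.2 per 1000 windows. The exons with a coding site had a median length of 508 bp, against 162 bp over windows. Exons shorter than 100 bp held 0.732 sites per 1000 windows, those from 100 to below 200 bp 2.71, those from 200 to below 500 bp 6.84, those from 500 to below 1000 bp 7.76, and those of 1000 bp or more 6.64. Every exon stretch gave at least 1 window, also where it was shorter than 150 bp. Short exons, most of them internal, therefore count for more windows than their bases fill, and density per base was not computed by exon length. A total of 353 coding sites (47.8%) lay wholly inside the exon, 254 crossed an edge and 132 (17.9%) covered the exon, whereas 574 of the 3′ untranslated sites (93.9%) lay inside.

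**Figure D5:**
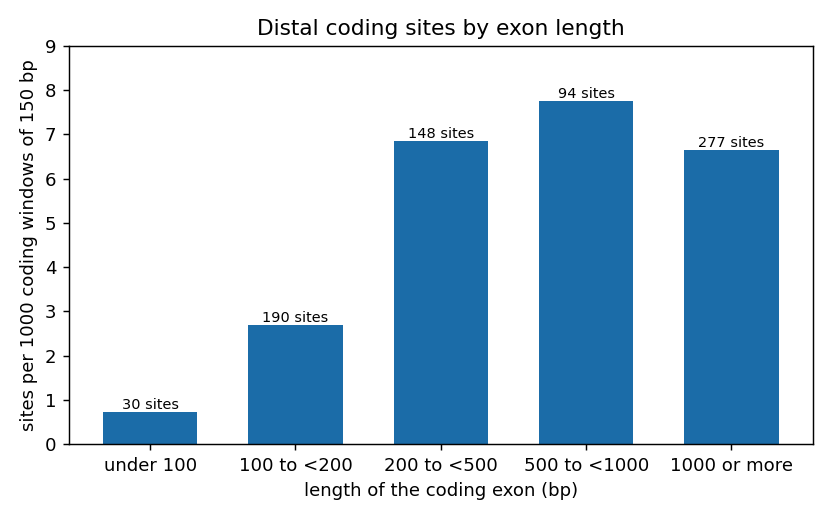
Distal coding sites per 1000 coding windows of 150 bp, by length of the exon, with the number of sites on each bar. The density is 0.732 in exons under 100 bp and between 6.64 and 7.76 in those of 200 bp or more. An exon shorter than 150 bp counts as a whole window, so the bars are not densities per base.

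The end of one gene is often near the start of the next. The nearest annotated start belonged to another gene for 284 of the 3′ untranslated sites (46.5%) and 200 of the coding sites (27.1%). Over all exonic sites, 988 (62.3%) lay in a last exon, which also held 59.3% of exon windows.

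The sites fell in 1429 genes, of which 1290 had 1 site, 123 had 2, 15 had 3 and 1 had 4. That 1 gene was Tchh, which encodes trichohyalin of the hair follicle. Its 4 sites lay in its second and last exon, with heights from 0.421 to 2.19 in replicate 1 and from 0.409 to 1.43 in replicate 2. One of them was the widest member, at 1660 bp (chr3:93446101-93447760). Foxc1, a forkhead regulator of mesenchyme, had a 3′ untranslated site of 1185 bp with 1.52 and 1.21, and Zfp503 a coding one of 1100 bp with 1.53 and 1.47. The Foxc1 and Zfp503 sites were above the members' median height in replicate 2, the Tchh one was below it in both replicates, and the Zfp503 one held no base footprinted in both replicates.

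Genes with 3 sites included Srcin1, an inhibitor of Src kinase, with 5.72 and 3.36 in exon 12, 2.42 and 0.911 in exon 16 and 1.85 and 1.84 in the 3′ untranslated region. Ank3, which encodes ankyrin-G, had 3.55 and 2.42 and 1.58 and 0.905 in exon 9 of a transcript without coding sequence, and 0.742 and 0.638 in a coding exon between them. Its 3 sites lay over 25 kb from the nearest GENCODE start, and 4051 to 5811 bp from a RefSeq start of Gm33416.

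Replicate 1 was the higher one in most distal exonic sites, as in the series as a whole. The median ratio of replicate 1 to replicate 2 was 1.55 (0.64 on the log2 scale), against a log2 ratio of 0.73 over all shared peaks and over intronic sites. Replicate 2 was higher in 129 of the 1585 sites (8.14%), where 6.98% of all shared peaks were; the count was 73 in coding (9.88%), 42 in 3′ untranslated (6.87%), 1 in 5′ untranslated and 13 in other exons. The difference between classes moved with height: with all shared peaks divided into 4 equal groups by height, in the lowest group 19.7% of coding sites (45 of 229) were higher in replicate 2, against 16.0% of all shared peaks and 9.46% of intronic sites, and in the highest group 0 of 74 coding sites were, against 0.340% of all shared peaks and 0.917% of intronic sites. In that group 4 of 64 of the 3′ untranslated sites (6.25%) were. By composition, 16.7% of CpG-rich coding sites (46 of 276) and 5.83% of the other coding sites (27 of 463) were higher in replicate 2, whereas 7.04% of CpG-rich 3′ untranslated sites and 6.85% of the other ones were. The part of height and composition in the difference was not tested further.

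Among the largest ratios in favour of replicate 1 were those of Sult5a1, a sulfotransferase (5.51 and 1.28, 4.30-fold), the forkhead gene Foxn2 (5.11 and 1.32, 3.87-fold) and Plekha6 (3.50 and 0.923, 3.79-fold). In favour of replicate 2 they were in Rims1, a protein of the presynaptic active zone (0.214 and 0.496), Gria2, an AMPA receptor subunit (0.314 and 0.533), Mxd4, a partner of Max (0.114 and 0.180), and Avpr1a, a vasopressin receptor (0.307 and 0.483). The first 3 sites all held a base footprinted in both replicates, and none of the last 4 did. These sites also differed in height. The last 4 were in the lowest height group of the members, where 67.8% of sites held such a base. Sult5a1 and Foxn2 were in the highest group (98.5%) and Plekha6 in the one below it (92.2%). Ratio and height were not separated here.

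Peaks of 1 replicate in distal exons numbered 3614 in replicate 1 and 1970 in replicate 2. Of those in replicate 1, 45.9% overlapped a peak of replicate 2, with a median height of 1.54 against 0.745 for those that did not. Of those in replicate 2, 84.4% overlapped one of replicate 1, which was lower than the 92.2% of intronic and 92.4% of intergenic peaks, and 81.8% of coding ones did. The exonic peaks found in replicate 2 alone had a median height of 0.483.

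Each list of adrenal genes except the immediate early one had a smaller share with a distal exonic site than protein-coding genes overall. Over the 7 lists of steroid synthesis, cholesterol handling, cortex regulators, chromaffin cells, the circadian clock, glucocorticoid response and immediate early genes, 9 of 153 genes with exon territory had one (5.88%), where 6.93% of all 20610 protein-coding genes with such territory did. The 9 genes became 30 with the longer peak lists, 32 with the peaks of replicate 1 alone, and 5 with a limit of 2 kb. All distal exonic sites then numbered 2939, 3614 and 1217, against 1585. The 6.93% does not apply to these settings, and the share over all genes is not given for them. Hsd3b1, the dehydrogenase and isomerase of steroid synthesis, was the 1 of 18 in its list, with 1.35 and 0.539 in a 5′ untranslated exon. Npc2, which hands cholesterol out of the lysosome, was the 1 of 27, with a CTCF-matching site of 1.34 and 1.10 in its last exon. Arntl, the clock activator BMAL1, was the 1 of 19 clock genes, with sites of 3.18 and 0.954 and of 1.56 and 0.868 in an exon without coding sequence. None of the 26 cortex regulators or 15 glucocorticoid response genes had a site. Only the immediate early list, with 5 of 21 genes (23.8%), was above the 6.93% of all genes. It gave 5 of the 9 genes, so the 5.88% over the 7 lists rests mostly on it. The share was 5.56% in steroid synthesis, 3.70% in cholesterol handling, 3.33% in chromaffin cells (1 of 30) and 5.26% in the clock. Each of these 4 shares rests on 1 gene.

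Immediate early genes held 6 of the 11 sites in these lists, in 5 of 21 genes. Jun, a subunit of AP-1, had 5.21 and 2.68 in its single exon's 3′ untranslated part. Fosb, a partner of Jun, had 1.93 and 2.08 in the 3′ untranslated region and 0.628 and 0.744 in an exon without coding sequence, both higher in replicate 2. The early growth response gene Egr4 had 2.24 and 1.5, Maff, a small Maf factor, had 2.24 and 1.17, and Ier5 had 1.13 and 0.849. The list had 263 exon windows and 22.8 sites per 1000 of them, against 3.39 over all genes.

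At the limit of 1 kb, the nearest members were Ctc1, a telomere-maintenance protein, at 1002 bp from its start (3.86 and 1.82), Nat14 at 1004 bp (1.48 and 1.31) and Avpr1a at 1006 bp (0.307 and 0.483). Just outside were Serpina9 at 999 bp from the start of Gm28577 (1.27 and 0.707), Dtx1 at 999 bp (1.16 and 0.769) and 4930523C07Rik at 992 bp (0.595 and 0.446).

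Repeated sequence made up little of the sites. More than 50% of the window was soft-masked in 16 members (1.01%), against 2.29% of all distal sites. More than 50% of the 31-base words recurred elsewhere in 4 members: Lars2, Mid1, Gm21188 and Gm8113. None of the 739 coding sites was among them, and 0 members matched the mitochondrial genome.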

How the data were processed

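DNase-seq of adrenal gland was available for 2 biological replicates, each with peak and footprint lists made by the authors on mm10 without pooling, per the file headers and listings. Each deposited peak has 1 height, a signal normalised by the authors. In each replicate the deposited heights were whole multiples of 1 step (0.00668 and 0.0062), and the median site stood 237 and 160 steps high; read totals, the aligner and the callers were not given in the sources used here. The deposited footprints carry a p-value of 0.01 throughout, read as the threshold of the call.

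Shared peaks, exon classes (coding before 5′ untranslated before 3′ untranslated before other exons), exon windows of 150 bp and distances to starts were computed in Python 3.11.15 from the shorter peak lists, GENCODE M21 and the GRCm38.p6 reference. The 24 consensus motifs were searched on both strands, and 31-base words were counted over the genome. Placement was tested on simulated data, where 632 planted shared sites all received their planted class.

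No test was made, since there is 1 group. The members, the 19 gene lists, the motifs and the rules were chosen with earlier results of these data known. Named genes are the highest sites of each class (10 coding, 6 of 5′ and 8 of 3′ untranslated regions, 4 of other exons), the genes of 7 adrenal lists with a site, the 6 genes with the most sites, the 4 highest and lowest ratios, the 3 widest sites, and 3 on each side of the limit; a few of these are not reported here. Sequences are printed for CTCF and for motifs of 7 or more bases, so 6-base E-boxes and NFI half-sites are not shown. Sites on chromosome 18 were left out of the printed sequences. Alternatives were the longer lists, the higher part of the peaks, other limits, other exon rules and each replicate alone; RefSeq starts were added after the data were seen.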

Additional observations from a re-analysis of the deposited data

How the results depend on the processing

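Of 88 settings over 9 results, 60 stayed within the replicate spread or 1.5 times the count, 28 moved and 0 reversed. With the longer peak lists the sites numbered 2939, the median of the geometric mean height fell from 1.25 to 0.842, the log2 ratio was 0.60, shared footprints were in 66.0%, CTCF matches in 6.60%, last exons held 60.8%, and 30 genes of the 7 lists had a site. With the peaks at or above each replicate's median height these were 725 sites, 42.9% coding, a height of 2.01, CTCF in 15.3%, last exons in 68.8% and 5 list genes. A limit of 500 bp gave a log2 ratio of 0.60, and 2 kb gave 66.6% in last exons and 5 list genes. Counting exons of protein-coding transcripts alone gave 53.8% coding. With 1 replicate left out, the ranges were 1970 to 3614 sites, 46.2% to 49.7% coding, heights of 0.880 to 0.993, footprints in 50.2% to 69.6%, GC of 55.3% to 58.0%, CTCF in 5.59% to 8.32%, last exons in 59.6% to 61.0% and 11 to 32 list genes. The cause of these moves was not tested beyond the number of peaks each setting admits. No paired analysis was possible because the study has 1 group. Adding RefSeq starts, chosen after the data were seen, moved none of these 9 results, but it removes 12 of the 32 sites in 5′ untranslated regions, among them 5 of the 6 highest, and the highest coding site, that of Angptl6. Read depth is not known, so low sites of replicate 1 alone cannot be told from sites missed in replicate 2.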

Other observations

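Genes of other cell types also held distal exonic sites, and these lists were described after their values were seen. Of 14 brain neuron genes 6 had a site: Gad2, Gria2, Grin2b, Rbfox3, Syp and Tbr1. Of 14 adipocyte genes 5 had one: Dio2, Elovl3, Plin1, Pnpla2 and Pparg. Pparg, the nuclear receptor of fat cells, had 2.82 and 1.26 in coding exon 5, and Elovl3, a fatty acid elongase of brown fat, had 4.72 and 2.76 in its last exon, 1749 bp from the start of Pitx3. Plin1, which coats lipid droplets, had 2.35 and 1.94. Of 14 endothelial genes 4 had one, among them Plvap, a protein of fenestrated capillaries, with 4.14 and 1.96 and an NRF1 match in coding exon 3. The brain neuron sites in Gad2 (0.455 and 0.440) and Grin2b (0.608 and 0.440) were low, and that of Rbfox3 was higher (2.79 and 2.70).

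Collagen and matrix genes had 2 of 20, keratins 3 of 51, Hox genes 2 of 38, histones 2 of 18, ribosomal protein genes 1 of 53 and zinc finger genes with a Zfp symbol 14 of 392 (3.57%). The 54 clustered protocadherins and 12 skeletal muscle genes with exon territory had none. The background is the 6.93% of protein-coding genes given above. Per 1000 exon windows the adipocyte list held 25.6 sites, the endothelial one 11.1, the brain neuron one 10.8 and the Zfp genes 1.74, against 3.39 over all genes.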
